A study of Sus scrofa domesticus with 11 samples.

Results

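The liver genes described here encode the enzymes that handle drugs and other foreign compounds, together with the receptors that control them. The set held every row of the deposited table whose gene symbol began with CYP1, CYP2 or CYP3 and a letter, or with UGT1A, UGT2, SULT1, SULT2, GSTA, GSTM, GSTT or GSTO, plus NR1I2, NR1I3, AHR, POR, ALAS1 and EPHX1. This rule used names alone and found 34 of 22029 rows. It took 15 cytochromes P450, 13 conjugating enzymes and the 6 single genes. The 34 rows are not the whole system, because some rows of the same families carry no symbol in the table, and these are given at the end.

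All animals were preterm Yorkshire piglets on parenteral nutrition, that is, fed by vein, and liver was taken at day of life 15. The SEFA-6179 group (5 libraries) received the compound of that code name at 48 mg/kg. The MCT group (6 libraries) received the vehicle, medium-chain triglyceride, in an equal volume of 3 ml/kg. Both groups thus share prematurity, intravenous feeding and the day of collection, and no library came from an orally fed or a term animal. The sources used here do not give sex or litter. The Y-linked gene EIF1AY had 351 and 350 counts in SEFA-6179 replicates 1 and 4, and 0 in replicates 2, 3 and 5. In MCT replicates 1, 3, 4 and 6 it had 414, 495, 405 and 384 counts, and 0 in replicates 2 and 5. Libraries with such reads were thus not evenly divided between the groups. A fit with EIF1AY as covariate is among the alternatives below. Each library was taken as 1 animal, and p-values measure the spread between these libraries.

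Cytochromes P450 of the families CYP1 to CYP3 insert oxygen into lipophilic compounds, taking electrons from NADPH through the reductase encoded by POR. They carry a haem group whose synthesis starts with ALAS1. Conjugating enzymes then attach a polar group: glucuronic acid (UGT), sulfate (SULT) or glutathione (GST). Receptors that sense foreign compounds raise transcription of these enzymes: PXR (NR1I2), known for CYP3A, CAR (NR1I3), known for CYP2B, and the aryl hydrocarbon receptor (AHR), known for CYP1. Most of these enzymes are made by hepatocytes, and many mature only around or after birth.

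The 5 SEFA-6179 libraries held 16821201 to 19215097 counts each and the 6 MCT libraries 15974977 to 23416071. MCT replicate 5 stood apart from the other libraries on the first principal component of all tested genes. It lay at 83.1, and the others ran from -30.8 (SEFA-6179 replicate 2) to 14.7. That component held 19.6% of the variance. Several of the values that rest on MCT replicate 5 are therefore given with and without it. Hepatocyte markers were abundant in every library: all 17 marker rows were counted in each, with a summed level of 149294 to 238481 CPM (counts scaled to a common library size, here after TMM, a correction for library composition) with SEFA-6179 and 104362 to 214523 CPM with MCT. Periportal markers summed to 10727 to 16819 CPM with SEFA-6179 and 7042 to 13601 CPM with MCT. The 14 pericentral markers other than CYP2E1, itself one of the genes described here, summed to 1084 to 2227 and 1286 to 2217 CPM. Bile duct markers summed to 198 to 313 against 224 to 541 CPM, with 11 of 13 tested markers below 0 in log2 fold change (median -0.55). Endothelial markers summed to 796 to 1441 against 719.8 to 1226 CPM, macrophage markers to 846 to 3636 against 1472 to 2911 CPM, stellate cell markers to 658 to 1005 against 814 to 1199.6 CPM, erythroid markers to 278 to 544 against 144 to 466 CPM, and T and NK cell markers to 12.2 to 44.5 against 12.5 to 43.9 CPM. Log2 fold changes lay above 0 for 16 of 16 tested endothelial markers (median 0.35), 9 of 13 macrophage (median 0.29), 3 of 13 stellate (median -0.12), 10 of 11 T and NK (median 0.19), 12 of 17 hepatocyte (median 0.10), 8 of 14 periportal (median 0.26), 10 of 15 pericentral, CYP2E1 included (median 0.059), and 1 of 7 erythroid markers (median -0.23), the last being HBB, which makes up most of the erythroid sum. No marker passed edgeR's adjusted threshold. The part of cell composition in the values below was not tested, and in whole tissue fewer cells of a type and less RNA per cell cannot be told apart.

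Differences in the set went both ways, with log2 fold changes above 0 for 17 tested genes and below 0 for 12. CYP3A29, the leading P450 row by counts, had a mean of 2038 ± 846 CPM in the SEFA-6179 group (SD, n = 5). Its mean was 4549 ± 1661 CPM in the MCT group (SD, n = 6). Its log2 fold change was -1.16, and that of SULT1C2 was -1.13. Among the genes on the other side were CYP1A2, CYP2C42, CYP2U1, UGT2B31 and GSTT4, with log2 fold changes between 0.57 and 1.21. None of these differences passed edgeR's quasi-likelihood test adjusted over all genes. Of the 34 rows, 29 had enough counts to be tested and 0 passed the adjusted threshold of 0.05, where 0.219% of all 13671 tested genes did. At an unadjusted p below 0.05 there were 4 of the 29 tested genes (13.8%), CYP2U1, CYP3A29, SULT1C2 and GSTT4, where 10.8% of all tested genes lay below that value. DESeq2, run as another tool, called 1 of the 34 (CYP3A29, lower; background 1.60% of genes in either direction and 0.886% lower), and limma with library weights called 0 (background 0.454%). In the authors' deposited table, 1 of the 34 had an adjusted p below 0.05, CYP3A29, which was lower. Of all rows there, 1.16% passed in either direction and 0.631% with a lower level. The unadjusted p of CYP3A29 was 7.90e-04 both in that table and by DESeq2 on the same counts, so these are not separate results.

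Over the 29 tested genes 17 had a log2 fold change above 0 and 12 below, with a median of 0.22, while over all tested genes 49.8% lay above 0 with a median of -0.0015. The 13 tested P450 genes had a median of 0.36 (8 above 0), the 10 tested conjugating enzymes one of 0.048 (5 above 0) and the 6 single genes one of 0.25 (4 above 0). The median size of the change, whatever its sign, was 0.35 for the set and 0.20 for all tested genes. The set also varied more between animals of the same group. Its median coefficient of variation within groups was 43.0%, from 15.1% for POR to 159% for CYP2A19, beside a median of 25% over all tested genes. In none of the 29 genes did every SEFA-6179 library lie beyond every MCT library, which 1.48% of all tested genes did.

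**Figure D1:**
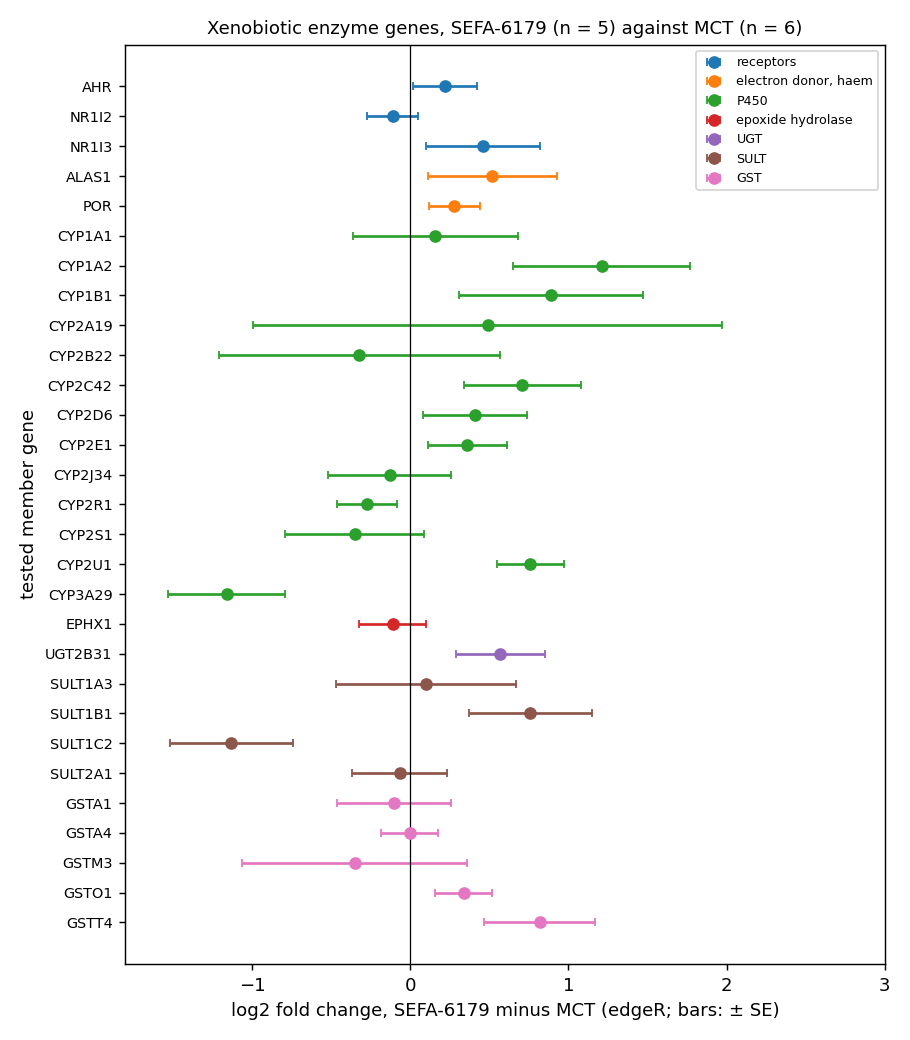
Log2 fold change of each of the 29 tested genes, SEFA-6179 minus MCT, with bars of 1 standard error from edgeR, coloured by role. CYP3A29 (-1.16) and SULT1C2 (-1.13) lie farthest to the left, CYP1A2 (1.21) farthest to the right, and the bar of CYP2A19 is the widest.

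The receptor genes differed between groups by less than the spread between libraries. NR1I2, which encodes PXR, was at 115, 117, 71.6, 91.6 and 118 CPM in SEFA-6179 replicates 1 to 5, and MCT libraries ran from 97.0 to 134 CPM with a median of 106. The groups overlapped, and its log2 fold change was -0.11 ± 0.16 (SE; edgeR adjusted p = 0.856). AHR was at 31.7, 19.6, 28.4, 33.5 and 38.7 CPM with SEFA-6179 against 15.8 to 33.2 CPM (median 27.4) with MCT. Its lowest values were those of MCT replicate 5 and SEFA-6179 replicate 2, and its log2 fold change was 0.22 ± 0.20 (edgeR adjusted p = 0.746).

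NR1I3, which encodes CAR, was the least counted of the receptors. It was at 7.66, 16.1, 4.86, 8.81 and 4.68 CPM with SEFA-6179 and at 2.64 to 10.1 CPM (median 5.43) with MCT. SEFA-6179 replicate 2 had the highest and MCT replicate 5 the lowest level. The log2 fold change was 0.46 ± 0.36 (edgeR adjusted p = 0.692), and without these 2 libraries it was -0.063. The span of NR1I3 holds the whole of TOMM40L, a row on the opposite strand whose mean count was 106. Because the sources used here give no strand setting for the counting, reads of the pair cannot be told apart.

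The genes that serve the P450 enzymes of the set had means on the upper side with SEFA-6179. POR, the electron donor, was at 296, 193, 260.4, 288 and 229 CPM with SEFA-6179 and at 168 to 241 CPM (median 204) with MCT. In 3 of 5 SEFA-6179 libraries it lay above all MCT libraries. For POR the log2 fold change was 0.28 ± 0.16 (edgeR adjusted p = 0.539). ALAS1, the first and rate-limiting enzyme of haem synthesis in liver, was at 186, 39.9, 238, 280.1 and 312 CPM with SEFA-6179 and at 82.3 to 219 CPM (median 133) with MCT. It too lay above all MCT libraries in 3 of 5, while SEFA-6179 replicate 2 lay below every other library. Its log2 fold change was 0.52 ± 0.41 (edgeR adjusted p = 0.698) and 0.79 without that replicate.

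CYP3A29 belongs to the subfamily that oxidises the broadest range of drugs and also hydroxylates bile acids and steroids. It was at 2737, 619, 2071, 2133 and 2632 CPM in SEFA-6179 replicates 1 to 5. MCT replicates 1 to 6 were at 5708, 5473, 3253, 6253, 1905 and 4702 CPM. Thus 5 of 6 MCT libraries lay above all SEFA-6179 libraries, and MCT replicate 5 fell within the SEFA-6179 range. The MCT mean was 2.23 times the SEFA-6179 mean, or -1.16 ± 0.37 (SE) as a log2 fold change, and the edgeR adjusted p was 0.259. By DESeq2 the adjusted p was 0.0492, and over all 21 alternatives it ran from 0.0492 to 0.439 with log2 fold changes of -1.35 to -0.92. In the authors' deposited table, with the same unadjusted p as by DESeq2, the log2 fold change was -1.16 and the adjusted p 0.0457. Without MCT replicate 5 the log2 fold change was -1.32 (edgeR adjusted p = 0.160).

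The CYP3A29 row was not a single compact gene. It spanned 207475 bases of chromosome 3, from 6615343 to 6822817 on the plus strand in the coordinates of the deposited table, with an exon length of 15605 bases. The table gave it the symbol CYP3A29 and the description of CYP3A22. RefSeq's gene list for Sscrofa11.1 names CYP3A22, CYP3A46 and CYP3A29 next to each other on chromosome 3 with no listed gene between them, and the table held 1 row with a CYP3A symbol. Its count is therefore read here as that of the CYP3A locus, and which of these genes the reads came from was not tested.

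CYP3A29 also weighed on the whole set. It took 7.98% to 28.1% of the set's counts in SEFA-6179 libraries, with a median of 22.3%, and 20.5% to 51.4% in MCT libraries, with a median of 46.1%. Without MCT replicate 5 the lowest MCT share was 40.6%. All 34 rows together took 0.915% ± 0.166 (SD, n = 5) of the counts with SEFA-6179 and 1.08% ± 0.135 (SD, n = 6) with MCT. Without CYP3A29 the order of the means was the other way round, 0.717% ± 0.112 against 0.610% ± 0.0507.

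The CYP1 enzymes oxidise planar aromatic compounds, and CYP1A2, the liver form, also oxidises caffeine. CYP1A2 was at 28.8, 50.1, 15.2, 16.5 and 125 CPM with SEFA-6179 and at 11.2 to 34.2 CPM (median 17.5) with MCT. Replicates 2 and 5 of SEFA-6179 lay above all MCT libraries, and replicates 3 and 4 lay near the MCT median. The log2 fold change was 1.21 ± 0.56 (edgeR adjusted p = 0.477), and without SEFA-6179 replicate 5 it was 0.44. CYP1A1, the form induced outside the liver as well, ran from 3.62 to 20.9 CPM with SEFA-6179 and from 2.19 to 18 CPM with MCT (log2 fold change 0.16 ± 0.52). CYP1B1, found mostly outside hepatocytes, ran from 1.5 to 17.1 against 1.40 to 6.73 CPM, with a log2 fold change of 0.89 ± 0.58 and an edgeR adjusted p of 0.624. CYP1A1 (chromosome 7, 58780105 to 58809755, plus strand) and CYP1A2 (58779475 to 58786100, minus strand) overlap by 5996 bases in the table, so reads of this pair cannot be told apart without a strand setting.

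CYP2U1, an enzyme that hydroxylates long-chain fatty acids, had the smallest p of the set by edgeR. By DESeq2, with the same p-values in the authors' deposited table, that of CYP3A29 was smaller. CYP2U1 was at 16.9, 18.1, 8.94, 18.5 and 21.9 CPM with SEFA-6179 and at 7.13 to 11.8 CPM (median 10.2) with MCT. In 4 of 5 SEFA-6179 libraries it lay above all MCT libraries, and replicate 3 was among the MCT values. Its log2 fold change was 0.76 ± 0.21 with an edgeR adjusted p of 0.182. Over the alternatives the adjusted p ran from 0.0326, without SEFA-6179 replicate 3, to 0.427. Most of the span of CYP2U1 overlaps SGMS2 on the same strand, which had a mean count of 44.6.

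CYP2C42 stands for the P450 subfamily that oxidises many acidic drugs. It was at 1165, 1764, 356, 978 and 1156 CPM with SEFA-6179 and at 380.4 to 1178 CPM (median 582) with MCT. SEFA-6179 held both the highest and the lowest library, and the log2 fold change was 0.71 ± 0.37 (edgeR adjusted p = 0.508). Like CYP3A29, this row covered a long stretch, chromosome 14 from 106013495 to 106713121, with an exon length of 16250 bases. RefSeq's list names 6 protein-coding CYP2C genes on that chromosome, while 1 row of the table carried a CYP2C symbol. Of these 6, CYP2C33 had its own row without a symbol, outside this stretch, which is given at the end. Whether the count of the CYP2C42 row holds reads of other copies was not tested.

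CYP2E1, which oxidises ethanol and other small molecules and is a pericentral enzyme, was at 1258, 2113, 894, 1597 and 2265 CPM with SEFA-6179 and at 838 to 1483 CPM (median 1386) with MCT. In 3 of 5 SEFA-6179 libraries it lay above all MCT libraries, with a log2 fold change of 0.36 ± 0.25 (edgeR adjusted p = 0.636). CYP2D6, named after the human enzyme of many basic drugs, was at 1446, 719, 1211, 1651 and 1677 CPM with SEFA-6179. MCT libraries ran from 531 to 2131 CPM with a median of 823, and MCT replicate 5 held the highest value of all 11. The log2 fold change was 0.41 ± 0.33 (edgeR adjusted p = 0.692) and, without MCT replicate 5, 0.78 (edgeR adjusted p = 0.224).

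CYP2R1, CYP2J34 and CYP2S1 had means slightly on the lower side with SEFA-6179. CYP2R1 is the microsomal enzyme that hydroxylates vitamin D and was at 10.2 ± 1.86 against 12.3 ± 2.85 CPM, with a log2 fold change of -0.27 ± 0.19 (edgeR adjusted p = 0.652). CYP2J34, of a subfamily that forms epoxides of arachidonic acid, was at 49.0 ± 28.5 against 53.7 ± 16.9 CPM. Its row spanned 327132 bases with an exon length of 29241 bases, and it overlapped another row by 13012 bases. Whether the CYP2J34 count holds reads of other genes was not tested. CYP2S1, an extrahepatic form, was at 1.13 ± 0.542 against 1.44 ± 0.700 CPM.

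**Figure D2:**
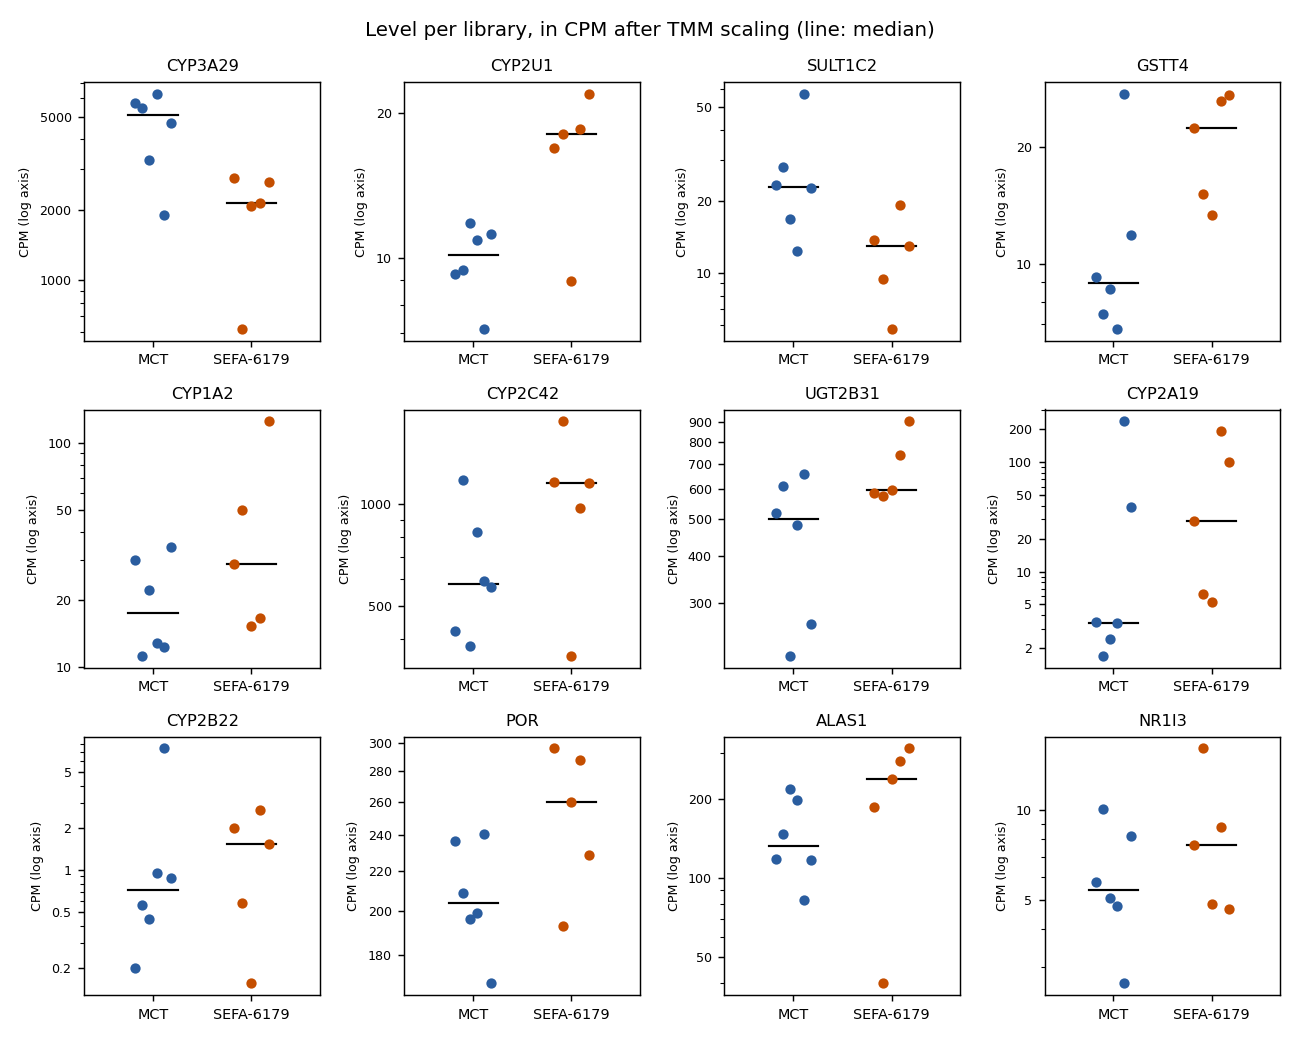
CPM after TMM scaling of 12 genes in each MCT library (blue, n = 6) and each SEFA-6179 library (orange, n = 5), on log axes, with a line at the group median. For CYP3A29, 5 of 6 MCT points lie above all SEFA-6179 points, for CYP2U1, 4 of 5 SEFA-6179 points lie above all MCT points, and MCT replicate 5 is the highest MCT point for SULT1C2, GSTT4, CYP2A19 and CYP2B22.

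CYP2A19 and CYP2B22, neighbours on chromosome 6 (49056578 to 49064107 and 49110812 to 49178413, both on the minus strand), varied most. CYP2A enzymes oxidise nicotine and skatole, and CYP2B is the classical subfamily induced by phenobarbital. CYP2A19 was at 29.1, 6.18, 5.32, 194 and 101 CPM in SEFA-6179 replicates 1 to 5. MCT replicates 1 to 6 were at 3.47, 1.69, 2.42, 3.36, 238 and 38.7 CPM. The levels thus spread 141-fold over 11 livers, with 6 libraries at 6.18 CPM or less, the other 5 at 29.1 CPM or more, and both groups in each range. CYP2A19 had a log2 fold change of 0.49 ± 1.48 (edgeR adjusted p = 0.934), which was 2.77 without MCT replicate 5 (edgeR adjusted p = 0.436) and -0.43 without SEFA-6179 replicate 4.

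CYP2B22 was at 1.99, 0.578, 0.155, 2.68 and 1.54 CPM with SEFA-6179, and MCT replicates 1 to 6 were at 0.198, 0.563, 0.445, 0.948, 7.41 and 0.878 CPM. MCT replicate 5 was again the highest library and SEFA-6179 replicate 4 the next. This gave a log2 fold change of -0.32 ± 0.89 (edgeR adjusted p = 0.929) and 1.19 without MCT replicate 5 (edgeR adjusted p = 0.477). Over the 11 libraries the log2 levels of CYP2A19 and CYP2B22 had a Pearson r of 0.83 (permutation p = 0.00133, adjusted p = 0.0106 over 8 relations) and a Spearman rho of 0.75 (permutation p = 0.0115, adjusted p = 0.0732). This pair was picked after its values were seen. Without the 2 libraries farthest from the median, MCT replicate 5 and SEFA-6179 replicate 4, r was 0.66 and rho 0.53 and neither passed (exact permutation p = 0.0592 and 0.148), so the call rests on those libraries while r kept its sign. With each value taken relative to its group mean, r was 0.86 and rho 0.80 (permutation adjusted p = 0.00496 and 0.0188 over 8 relations). Within the 6 MCT libraries r was 0.85 (exact permutation p = 0.0458) and rho 0.49 (exact permutation p = 0.356).

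EPHX1, the microsomal hydrolase that opens the reactive epoxides P450 enzymes make, was at 286 ± 79.6 against 308 ± 62.0 CPM (log2 fold change -0.11 ± 0.21, edgeR adjusted p = 0.896). UGT2B31, which glucuronidates steroids and drugs, was at 584, 575, 596, 737 and 906 CPM with SEFA-6179 and at 217 to 659 CPM (median 499) with MCT. SEFA-6179 replicates 4 and 5 lay above all MCT libraries and the other 3 were within the MCT range. UGT2B31 had a log2 fold change of 0.57 ± 0.28 (edgeR adjusted p = 0.481).

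The sulfotransferases had fold changes on both sides of 0. SULT1C2, of a subfamily that sulfates phenolic compounds and is prominent in fetal tissues, was at 13.7, 9.36, 5.79, 19.3 and 13.0 CPM with SEFA-6179, and MCT replicates 1 to 6 were at 23.5, 28.1, 16.9, 12.4, 56.9 and 22.7 CPM. In 4 of 6 MCT libraries it lay above all SEFA-6179 libraries, and MCT replicate 5 was the highest. The log2 fold change was -1.13 ± 0.39 with an edgeR adjusted p of 0.300, and it was -0.76 without MCT replicate 5. The span of SULT1C2 (chromosome 3, 47807832 to 47824187) lies inside a row on the same strand that the reference list names SULT1C3, which had a mean count of 3027, so its count is uncertain.

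SULT2A1, which sulfates bile acids and steroids, was at 399.6, 256, 939, 845 and 793 CPM with SEFA-6179 and at 537 to 921 CPM (median 655) with MCT. SEFA-6179 replicates 1 and 2 lay below all MCT libraries and replicate 3 above them, and the log2 fold change was -0.066 ± 0.30 (edgeR adjusted p = 0.962). SULT1B1, which sulfates thyroid hormone and phenols, was at 22.4, 10.7, 3.51, 22.7 and 21.4 CPM with SEFA-6179 and at 5.56 to 13.7 CPM (median 10.2) with MCT. It lay above all MCT libraries in 3 of 5 and below them in replicate 3, with a log2 fold change of 0.76 ± 0.39 (edgeR adjusted p = 0.515). SULT1A3, named after the human enzyme that sulfates catecholamines, was at 12.2 ± 10.1 against 11.4 ± 7.21 CPM.

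Among the glutathione S-transferases, GSTT4, of the theta class, had groups that overlapped through 1 MCT library. It was at 22.4, 15.2, 13.4, 26.3 and 27.3 CPM with SEFA-6179, and MCT replicates 1 to 6 were at 9.28, 7.45, 8.61, 6.82, 27.4 and 11.9 CPM. All MCT libraries but replicate 5 lay below all SEFA-6179 libraries, and replicate 5 was the highest of all 11. Over all libraries its log2 fold change was 0.82 ± 0.35 (edgeR adjusted p = 0.410), and without MCT replicate 5 it was 1.25 with an edgeR adjusted p of 0.0418. Over the alternatives the adjusted p ran from 0.0417 to 0.651.

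GSTO1, the omega class enzyme that also reduces dehydroascorbate, was at 517 ± 86.0 against 409 ± 81.8 CPM (log2 fold change 0.34 ± 0.18, edgeR adjusted p = 0.520). GSTA1, the main alpha class enzyme of hepatocytes, was at 365 ± 166 against 392 ± 138 CPM (log2 fold change -0.10 ± 0.36). Its row had an exon length of 11544 bases, and whether the GSTA1 count holds reads of other genes was not tested. GSTA4, which conjugates products of lipid peroxidation, was at 54.9 ± 11.4 against 55.0 ± 12.3 CPM (log2 fold change -0.0026 ± 0.18), the smallest difference of the set. GSTM3, the 1 mu class row, ran from 1.04 to 10.1 CPM with SEFA-6179 and from 0.645 to 20.1 CPM with MCT, where replicate 5 was the highest. Its log2 fold change was -0.35 ± 0.71, and 0.34 without MCT replicate 5.

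The 5 rows that did not pass the filter on low counts were CYP2F1, CYP2W1, GSTO2, SULT1C4 and SULT2B1. CYP2F1, known from lung, had 29 reads over the SEFA-6179 libraries and 28 over the MCT libraries. GSTO2 had 31 and 31, and SULT1C4 27 and 38. SULT2B1, which sulfates cholesterol in skin, had 4 and 17. CYP2W1, a form of the fetal gut and of tumours, had 0 reads in the SEFA-6179 group, which allows up to 0.0331 CPM over that group's total (3 counts; counting error only), and 3 reads in the MCT group.

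Levels of different genes can be compared only per length, for which the deposited FPKM values (fragments scaled to gene length and library depth) were used. Over all 11 libraries CYP2D6 had the highest mean, 654 ± 287 FPKM (SD, n = 11). GSTO1 (407 ± 86.5), SULT2A1 (377 ± 122) and CYP2E1 (373 ± 116) followed and lay within 1 SD of each other. CYP3A29 came next at 216 ± 117 FPKM, a value that divides by the 15605 bases of its long row. POR was at 65.3 ± 11.8 FPKM. Of the receptors NR1I2 was at 16.6 ± 2.76, AHR at 5.14 ± 1.2 and NR1I3 at 1.11 ± 0.571 FPKM. CYP2B22, at 0.260 ± 0.346 FPKM, was the lowest of the tested genes.

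**Figure D3:**
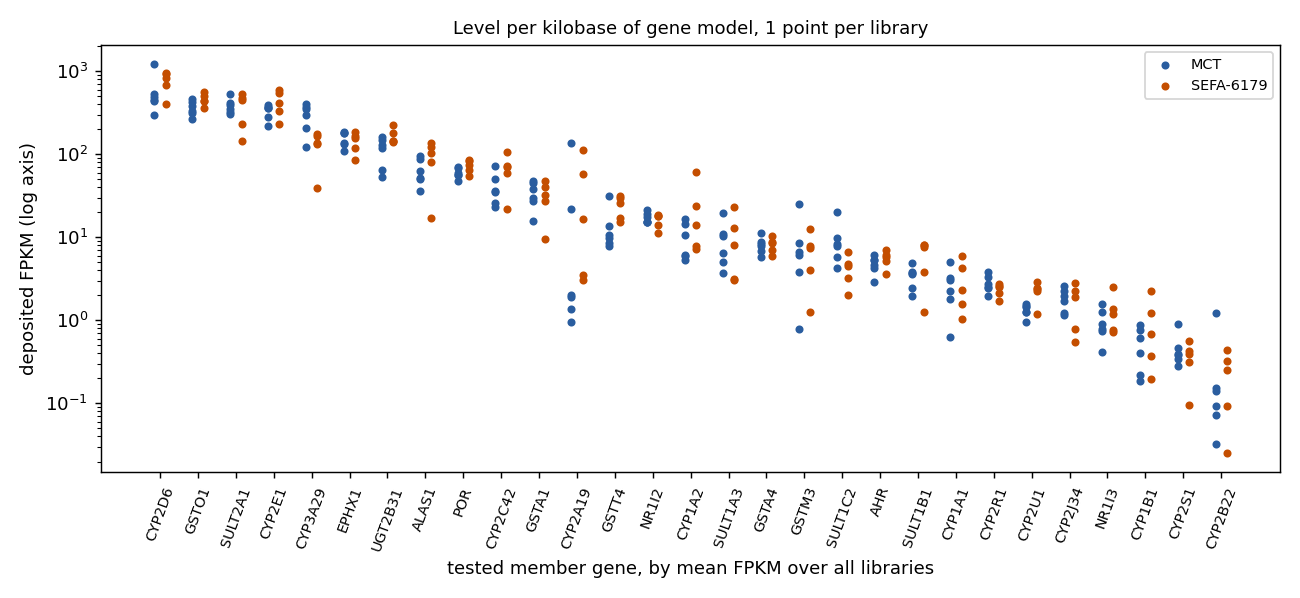
Deposited FPKM of the 29 tested genes in each library, on a log axis, ordered by the mean over all 11 libraries, with MCT in blue and SEFA-6179 in orange. Means run from 654 FPKM for CYP2D6 to 0.260 FPKM for CYP2B22, and the points of CYP2A19 are the most widely spread.

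Read across libraries, single animals carried much of the variation. MCT replicate 5 held the lowest MCT level in 9 and the highest in 11 of the 29 tested genes. The lowest included CYP3A29, CYP2E1, ALAS1, AHR, NR1I3 and CYP1A1, and the highest included CYP2A19, CYP2B22, CYP2D6, GSTM3, GSTT4 and SULT1C2. SEFA-6179 replicate 2 was the lowest of its group in 13 genes, among them CYP3A29, ALAS1, AHR, POR and SULT2A1, while it held the highest NR1I3 and CYP2C42. SEFA-6179 replicate 3 was the lowest in 13 other genes, among them CYP2C42, CYP2E1, CYP1A2, GSTA1 and SULT1B1. SEFA-6179 replicate 5 was the highest of its group in 11. With MCT replicate 5 and SEFA-6179 replicate 2 both left out, a choice made after the data were seen, 1 of the genes passed edgeR's adjusted threshold, GSTT4 (log2 fold change 1.35, adjusted p = 0.0417). Over all genes 19 passed in that fit. For GSTT4, MCT replicate 5 was the only MCT library that overlapped the SEFA-6179 group, so leaving it out set the groups apart.

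**Figure D4:**
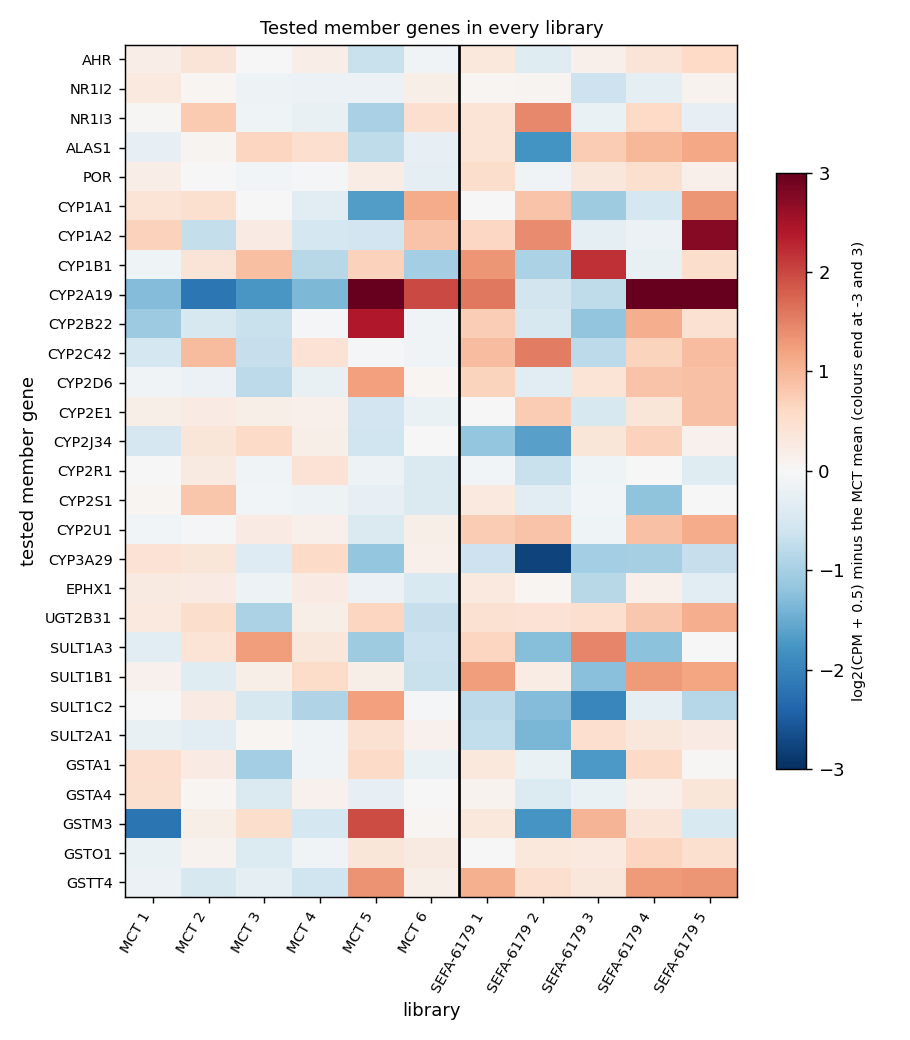
The 29 tested genes in every library, as log2(CPM + 0.5) minus the mean of the 6 MCT libraries, with MCT on the left of the line and SEFA-6179 on the right. In all 5 SEFA-6179 libraries and in MCT replicate 5, CYP3A29 lies below that mean and GSTT4 above it. MCT replicate 3 also lies below it for CYP3A29, and MCT replicate 6 above it for GSTT4.

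The wider pathway was read from 6 lists of genes that are not in the set, with 93 tested genes in all. By edgeR 0 of the 93 passed the adjusted threshold, where 0.219% of all genes did. At an unadjusted p below 0.05 there were 16, where 10.8% of all genes lay, and by DESeq2 2 passed, MAT1A and ADH4 (background 1.60%). Of 22 other oxidising and reducing enzymes 16 lay above 0 with a median log2 fold change of 0.15. ADH4, an alcohol dehydrogenase of liver that also oxidises retinol, was at 323 ± 232 against 48.5 ± 32.4 CPM, with a log2 fold change of 2.73 ± 0.69 and an edgeR adjusted p of 0.168. Of 13 other conjugating enzymes 11 lay above 0 (median 0.53). GSTK1, a mitochondrial and peroxisomal glutathione transferase, was at 317 ± 94.7 against 198 ± 42.9 CPM (log2 fold change 0.68 ± 0.22, edgeR adjusted p = 0.255).

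Of 18 genes of cofactor supply and electron transfer 14 lay above 0 (median 0.18). MAT1A, which makes the methyl donor S-adenosylmethionine, was at 906 ± 170.3 against 478 ± 149 CPM, and its lowest SEFA-6179 library (751 CPM) exceeded its highest MCT library (707 CPM; log2 fold change 0.92 ± 0.22, edgeR adjusted p = 0.126). All 11 genes of haem synthesis and breakdown lay above 0, with a median of 0.18. HMOX2, the constitutive haem oxygenase, was at 104 ± 7.74 against 78.3 ± 8.01 CPM, and its groups did not overlap either (log2 fold change 0.41 ± 0.12, edgeR adjusted p = 0.20). These were the 2 of the 93 genes whose groups did not overlap, both higher with SEFA-6179, where 0.666% of all tested genes were apart in that direction.

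Of 20 receptor partners and co-regulators 11 lay above 0 (median 0.054). HSP90AB1, a chaperone that holds AHR in the cytosol, was at 174 ± 31.5 against 270.1 ± 95.4 CPM (log2 fold change -0.64 ± 0.24, edgeR adjusted p = 0.334). RXRA, the partner of PXR and CAR, was at 250.2 ± 45.2 against 198 ± 27.5 CPM, and ARNT, the partner of AHR, at 38.7 ± 8.95 against 39.9 ± 9.68 CPM. Both were named after their values were seen. Of 9 genes of the NRF2 pathway, which guards against oxidants and electrophiles, 8 lay below 0 (median -0.16). The smallest p of that list was that of SRXN1, with an edgeR adjusted p of 0.682.

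Receptor and enzyme levels were set against each other over the 11 libraries for 6 pairs. NR1I2 and CYP3A29 had a Pearson r of 0.21 and a Spearman rho of 0.27 (permutation p = 0.520 and 0.420). NR1I3 and CYP2B22 had an r of -0.29 and a rho of -0.19 (permutation p = 0.388 and 0.578), and r was 0.37 without MCT replicate 5 and SEFA-6179 replicate 2. AHR had an r of 0.38 with CYP1A1 and of 0.21 with CYP1A2 (permutation p = 0.251 and 0.520; rho 0.22 and 0.018, permutation p = 0.522 and 0.967). NR1I3 with NR1I2 gave an r of 0.35 and POR with ALAS1 one of 0.40 (permutation p = 0.285 and 0.219; rho 0.23 and 0.39, permutation p = 0.503 and 0.237). Adjusted over the 6 pairs no Pearson p lay below 0.520 and no Spearman p below 0.694. CYP1A1 and CYP1A2, a pair added after the data were seen, had an r of 0.73 and a rho of 0.71 (permutation p = 0.00965 and 0.0183, adjusted p = 0.0386 and 0.0732 over 8 relations). Without MCT replicate 5 and SEFA-6179 replicate 5 that r was 0.62 (exact permutation p = 0.0762), and this pair shares genomic sequence as given above.

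Of the same families, 6 further rows had no symbol in the table and were found by their description there or in the reference list, after the data were seen. The row described as CYP2C33 (ENSSSCG00000010546, chromosome 14, 111234004 to 111301927) was at 1041 ± 289.5 against 902 ± 162 CPM (log2 fold change 0.21 ± 0.22, edgeR adjusted p = 0.785). UGT1A6 (ENSSSCG00000036274, chromosome 15, 133968693 to 134049028), which glucuronidates small phenols, was at 728 ± 73.3 against 863 ± 294 CPM (log2 fold change -0.25 ± 0.22, edgeR adjusted p = 0.741). SULT1E1, the oestrogen sulfotransferase, was at 366 ± 105 against 311 ± 93.5 CPM (log2 fold change 0.24 ± 0.24, edgeR adjusted p = 0.776). SULT1C3 was at 133 ± 45.7 against 185 ± 46.2 CPM (log2 fold change -0.48 ± 0.25, edgeR adjusted p = 0.518). The other two, described as CYP2C304 and CYP2G2, had too few reads to be tested.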

How the data were processed

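Liver RNA was sequenced from 11 piglets. The deposited table held raw read counts per gene, a normalized signal, FPKM values, and the authors' own log2 fold changes, p-values and adjusted p-values. Per the submitters' processing notes, DESeq2 1.20.0 was among the tools, as was featureCounts 1.5.0-p3, and HISAT2 2.0.5 and StringTie 1.3.3b are listed too. The sources used here give no genome build, annotation or strand setting. The deposited normalized signal was the count divided by 1 factor per library, tested on the values.

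Counts were tested with edgeR 4.0.16 (quasi-likelihood, robust, TMM scaling, filterByExpr with a minimum count of 10, R 4.3.3), and p-values were adjusted by Benjamini-Hochberg over all 13671 genes tested. The code was tested on simulated data. Alternatives used DESeq2 1.42.0, limma 3.58.1, other filters and scalings, and fits without libraries. Relations used permutation tests in scipy 1.17.1 (100000 resamples, two-sided, exact for 9 or fewer libraries).

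The set, the lists and the tests were chosen with earlier results of these data known. Named by rule were, in each family, the gene with the smallest p and that with the highest FPKM, the 6 single genes, any gene past the threshold or with groups apart, and the smallest p of each pathway list. CYP1A1, CYP1B1, CYP2J34, CYP2S1, GSTA4 and SULT1B1 were named outside that rule, after their values were seen.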

Additional observations from a re-analysis of the deposited data

Results flagged for a closer look

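In 58 groups of libraries (29 genes, both treatments), 7 held a library farther from the rest than Dixon's 95% limit allows. For normal values in independent groups chance gives about 1 in 20 groups, or 2.90. Here the CPM values were not logged and the genes share the same libraries, so that number is only a rough guide. Of the 7, 6 were in MCT replicate 5, and it was the high library each time. These were SULT1C2 at 56.9 CPM (other MCT libraries 12.4 to 28.1), GSTT4 at 27.4 CPM (others 6.82 to 11.9), CYP2D6 at 2131 CPM (others 531 to 947), GSTM3 at 20.1 CPM (others 0.645 to 7.12), CYP2B22 at 7.41 CPM (others 0.198 to 0.948) and CYP2A19 at 238 CPM (others 1.69 to 38.7). The remaining one was CYP2S1 at 2.81 CPM in MCT replicate 2 (others 0.878 to 1.44).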

How the results depend on the processing

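Of 482 log2 fold changes of 23 named genes under 21 alternative settings, 453 kept direction and side of the threshold, 4 came to pass it and 25 changed sign, these in 8 genes. Over all genes edgeR called 30. DESeq2 called 250, limma with library weights 62, the replicate block 8, the fit with the Y-linked gene EIF1AY as covariate 6, the fit without MCT replicate 5 and SEFA-6179 replicate 4 called 1, that without MCT replicate 5 and SEFA-6179 replicate 2 called 19, and leaving out 1 library gave 0 to 53. For the set, DESeq2 called 1 gene, leaving out 1 library gave 0 to 1 (CYP2U1 without SEFA-6179 replicate 3, GSTT4 without MCT replicate 5), and leaving out MCT replicate 5 and SEFA-6179 replicate 2 gave 1. For the pathway lists DESeq2 called 2. The set's median log2 fold change stayed between 0.17 and 0.31 when 1 library was left out.

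The log2 fold changes that turned sign follow, and the cause was not tested. With limma, CYP2B22 was 0.65, GSTM3 0.40 and SULT1A3 -0.26. With the replicate block, CYP2B22 was 0.21 and SULT1A3 -0.20. Without MCT replicate 5 and SEFA-6179 replicate 4, CYP2B22 was 0.81 and GSTM3 0.28. Without MCT replicate 5 and SEFA-6179 replicate 2, CYP2B22 was 1.38, GSTA1 0.057, GSTM3 0.60, NR1I3 -0.063 and SULT2A1 0.25. With 1 library left out, CYP2A19 ran from -0.43 to 2.77, CYP2B22 from -0.69 to 1.19, EPHX1 from -0.22 to 0.032, GSTA1 from -0.29 to 0.13, GSTM3 from -0.71 to 0.34, SULT1A3 from -0.46 to 0.46 and SULT2A1 from -0.24 to 0.14. Without the 2 farthest libraries, Pearson's r was 0.13 for AHR with CYP1A1 and 0.37 for NR1I3 with CYP2B22.

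Libraries of the same replicate number deviated from their group means with correlations of -0.149 to 0.202. These values cannot exclude a shared litter or day behind a number. The labels do not state what the numbers mark, and the main fit did not pair the samples. Of the 5 SEFA-6179 libraries, only replicate 3 correlated best with its own number. The block changed no call in the set. Rows with few reads, such as CYP2B22 and CYP2S1, carry the widest counting error.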
